A study of Mus musculus with 12 samples.

Results

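The genes described here are receptors that raise or lower the response of a lymphocyte to antigen, chosen by name: Tigit, Cd96, Ctla4, Cd28, Icos, Pdcd1, Lag3, Havcr2 and Btla. Of these 9 genes, 7 had values among the 556 genes measured, and Lag3 and Havcr2 were not analysed here. A T cell needs a co-stimulatory signal beside that of its antigen receptor, and Cd28 and Icos deliver such signals, whereas Ctla4, Pdcd1, Btla and Tigit dampen the response. Several of them compete for shared ligands. Ctla4 and Cd28 both bind Cd80 and Cd86, and Tigit and Cd96 share the ligand Pvr with the activating receptor Cd226. The intestinal mucosa holds many T cells and natural killer cells that carry such receptors, and Btla is also carried by B cells.

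RNA of the terminal ileum was counted with the NanoString nCounter mouse immunology panel, which tallies colour-coded probes hybridized to each transcript without sequencing. The 12 mice were male C57BL/6 mice sampled at week 7, in 4 groups of 3. SPF control mice were specific pathogen-free, with a microbiota and no antibiotic, and SPF PAT mice were specific pathogen-free and had been exposed to the macrolide tylosin early in life. GF control and GF PAT mice were germ-free, without and with the same tylosin exposure. The exposure reached the pups during nursing, through the drinking water of the mothers. The labels do not say which mice shared a litter or an assay run, so the p-values measure the spread between these mice, whatever its source.

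Values are the log2 normalized counts that the authors deposited, printed here as normalized counts where levels are given. Total counts per mouse were 806043 to 923395 in SPF control mice and 600308 to 681370 in the other groups. None of the 7 receptors was at 0 in any mouse, and their recovered counts ran from 4 to 1152. Cd96, Cd28 and Pdcd1 averaged under 20 normalized counts, so that on average over the mice their values carry more counting error than those of the other receptors. In GF control mice the recovered counts of Tigit were as low, at 9 to 11, beside 8 to 11 for Cd96. Pigr, the epithelial carrier of IgA and the epithelial gene of the marker lists that was measured, stood between 24904 and 67336 normalized counts. The measured T cell, B cell and myeloid markers were above 0 in every mouse, with the B cell gene Cr2 as low as 2.36 normalized counts in SPF PAT mice. The control probes hold no value, so no background level was set. Differences were tested in limma with all 12 mice in 1 model, and adjusted p-values are Benjamini-Hochberg values over the 556 genes with a threshold of 0.05. In RNA of whole tissue, fewer cells carrying a receptor and less RNA per cell cannot be told apart.

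Tigit, Btla and Cd96 lie on mouse chromosome 16, with 21 protein-coding genes between Tigit and Btla and 11 between Btla and Cd96 in RefSeq's GRCm38.p6. Cd28, Ctla4 and Icos are direct neighbours on chromosome 1. Over the mice Btla followed a different pattern from Tigit and Cd96, though on the same chromosome. Its root mean square difference in centred log2 values was 1.49 from Tigit and 1.48 from Cd96. Between Tigit and Cd96 it was 0.65. The promoters of the chromosome 16 genes are shown for this reason. Each is the 250 bases before the RefSeq start site, printed 5′ to 3′ on the gene's own strand, and capitals mark the RUNX core, TGTGGT or its reverse complement ACCACA. They lie at chr16:43664185-43664434 on the minus strand for Tigit, chr16:46120249-46120498 on the minus strand for Cd96 and chr16:45224087-45224336 on the plus strand for Btla.
Tigit: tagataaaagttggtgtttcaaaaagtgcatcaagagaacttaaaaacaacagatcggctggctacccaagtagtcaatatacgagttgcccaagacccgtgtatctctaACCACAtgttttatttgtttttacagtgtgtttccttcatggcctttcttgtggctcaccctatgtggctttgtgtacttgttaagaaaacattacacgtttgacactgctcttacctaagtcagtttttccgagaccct
Cd96: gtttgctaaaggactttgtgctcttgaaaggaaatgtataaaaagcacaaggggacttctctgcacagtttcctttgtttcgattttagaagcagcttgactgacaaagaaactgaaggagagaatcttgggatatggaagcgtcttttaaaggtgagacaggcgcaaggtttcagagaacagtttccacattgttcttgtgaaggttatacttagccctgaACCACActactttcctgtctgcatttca
Btla: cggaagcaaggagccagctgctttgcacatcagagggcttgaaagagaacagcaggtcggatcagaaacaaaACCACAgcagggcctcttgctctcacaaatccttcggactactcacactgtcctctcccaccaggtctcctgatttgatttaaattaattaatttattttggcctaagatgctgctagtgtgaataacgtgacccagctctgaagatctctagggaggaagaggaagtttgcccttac
Each held 1 match to the RUNX core, at 134 bases before the start for Tigit, 22 for Cd96 and 172 for Btla. Of the 7 receptors, 5 had a promoter sequence in the RefSeq table, and Ctla4 and Pdcd1 held no match. Among all 32851 promoters of the table, 14% held this motif on either strand. The NFAT core GGAAA, in 55.6% of all promoters, was found in those of Tigit, Cd96, Ctla4 and Pdcd1. The AP-1 site TGACTCA and the T-box site GGTGTGA, in 4.46% and 3.33% of all promoters, were found in none of the 5. These 4 motifs, searched on both strands, are matches of letters and were chosen after the expression values were known.

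Tigit set the 4 groups apart more sharply than any other receptor. Its level was highest in SPF control mice, lower in SPF PAT mice, lower again in GF PAT mice and lowest in GF control mice. Normalized counts of Tigit were 44.1, 52.9 and 54.4 in the SPF control mice and 25.2, 29.2 and 38.95 in the SPF PAT mice. In the GF control mice they were 8.98, 11.2 and 12.05, and in the GF PAT mice 17.7, 18.2 and 21.9. No group overlapped another. Of the 556 genes, 4 (0.719%) kept all 4 groups apart in this way, and the other three were Nfil3, Saa1_2 and Tnfsf15. On the log2 scale the group means of Tigit were 5.65 ± 0.16 (SD, n = 3) in SPF control, 4.94 ± 0.32 in SPF PAT, 4.26 ± 0.17 in GF PAT and 3.41 ± 0.22 in GF control mice. The recovered counts behind these values were 9 to 68, so that counting error forms part of the spread.

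**Figure D1:**
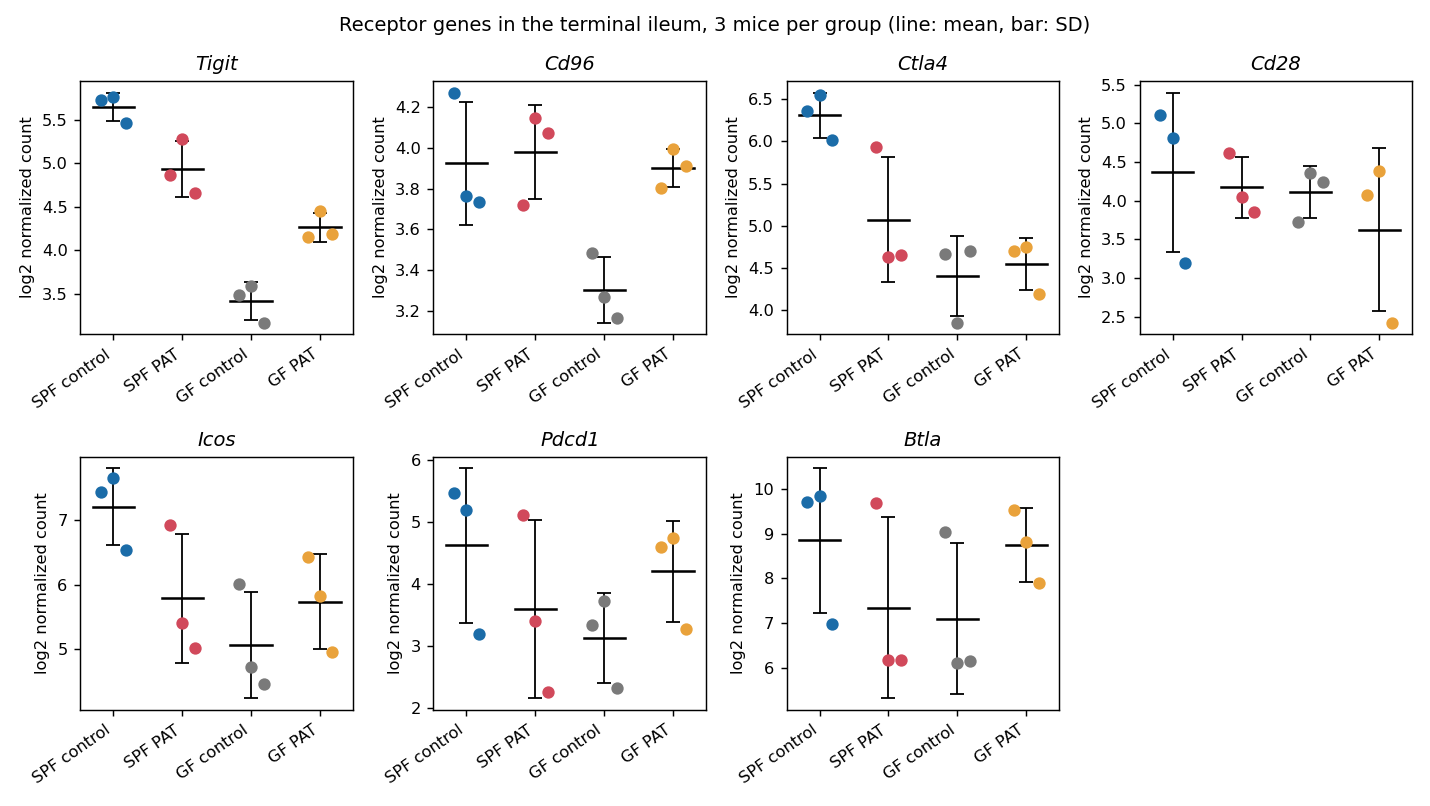
Log2 normalized counts of the 7 receptor genes in the terminal ileum, 1 panel a gene, with 3 mice a group as points, the group mean as a line and the SD as a bar. The 4 groups of Tigit do not overlap, from 8.98 to 12.05 normalized counts in GF control mice to 44.1 to 54.4 in SPF control mice, whereas mice of the same group lie far apart for Btla, Pdcd1 and Icos.

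Setting SPF control against GF control mice compares mice with and without a microbiota. By the paper's methods the SPF litters came from purchased breeders and the germ-free mice were bred in house. Colony and microbiota therefore cannot be told apart here. Tigit, Ctla4, Icos and Cd96 were higher in SPF control mice, and no receptor was lower. These were 4 of the 7 receptors with an adjusted p under 0.05, where 42.1% of all genes were called. Tigit rose by 2.24 on the log2 scale (SE 0.19, 4.72-fold, adjusted p = 4.55e-05). The median difference of the 7 receptors was 1.75, against 0.08 over all 556 genes.

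Ctla4, the inhibitory receptor that outcompetes Cd28 for its ligands, had 64.9, 82.2 and 93.6 normalized counts in the SPF control mice and 14.5, 25.4 and 25.9 in the GF control mice. The groups did not overlap, and the difference was 1.90 (SE 0.37, 3.74-fold, adjusted p = 0.00335). Icos, the inducible co-stimulator of activated T cells, had 92.4, 174 and 201 normalized counts against 21.9, 26.5 and 64.0. All SPF control mice again exceeded all GF control mice, with a difference of 2.15 (SE 0.60, 4.42-fold, adjusted p = 0.0174). Cd96, a receptor of T and natural killer cells that binds the same ligand as Tigit, had 13.3, 13.6 and 19.3 normalized counts against 8.98, 9.64 and 11.2. Its difference was smaller, at 0.62 (SE 0.18, 1.54-fold, adjusted p = 0.0187). The Cd96 call was lost in 8 of the 11 other settings run, with an adjusted p from 0.0539 with an intensity trend to 0.589 with median centring, and without SPF control mouse 2 (0.0666), GF control mouse 39 (0.0652) or GF control mouse 38 (0.0596). The Icos call was lost without SPF control mouse 7 (0.0618), SPF control mouse 2 (0.0565), GF control mouse 39 (0.0635) or GF control mouse 38 (0.0642), and in 3 of the 12 other settings run, namely Tukey HSD (0.125), Benjamini-Yekutieli adjustment (0.120) and the T cell covariate described further on, where its sign turned.

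Cd28, Pdcd1 and Btla overlapped between these groups. Cd28, the constitutive co-stimulatory receptor, had 9.15, 28.0 and 34.4 normalized counts in SPF control mice and 13.2, 19.0 and 20.5 in GF control mice. The single low value belonged to SPF control mouse 8, and the difference of 0.26 had a 95% interval from -1.05 to 1.57 (adjusted p = 0.739). Pdcd1, which encodes the inhibitory receptor PD-1, had 9.15, 36.8 and 44.5 normalized counts against 4.99, 10.2 and 13.3. Mouse 8 was again the low SPF control mouse, and the difference was 1.49 (SE 0.82, adjusted p = 0.162). Btla, an inhibitory receptor of B and T cells, had 126, 838 and 922 normalized counts against 68.7, 70.8 and 528. Here SPF control mouse 8 was low and GF control mouse 37 was high, and the difference of 1.75 had a 95% interval from -0.91 to 4.41 (adjusted p = 0.252).

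The scale of the values matters for these differences. The mean of the mice's medians over all genes was 0.44 higher in SPF control than in GF control mice on the log2 scale and 0.36 lower in SPF PAT than in SPF control mice. Between GF PAT and GF control mice it differed by 0.19. With each mouse centred on its own median, Tigit was still 1.80 higher in SPF control than in GF control mice (adjusted p = 0.000762), whereas Cd96 was 0.18 higher (0.589).

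Setting SPF PAT against SPF control mice asks what early tylosin left behind in mice with a microbiota. Tigit and Ctla4 were lower in SPF PAT mice. These were 2 of the 7 receptors, where 26.3% of all genes were called. Tigit fell by 0.72 (SE 0.19, to 0.609 of the SPF control level, adjusted p = 0.0217), and all 3 SPF PAT mice were below all 3 SPF control mice. This call was lost with the methods' Tukey HSD test (adjusted p = 0.112), with median centring (a difference of -0.36, adjusted p = 0.283), with quantile normalization (-0.19, 0.515) and in a fit of the SPF mice alone (0.0739). It was also lost without SPF PAT mouse 27 (0.0888), SPF control mouse 7 (0.0803) or SPF control mouse 2 (0.0752).

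Ctla4 had 24.8, 25.2 and 61.1 normalized counts in the SPF PAT mice, all below the lowest SPF control mouse at 64.9. The highest value belonged to SPF PAT mouse 21. Ctla4 fell by 1.24 (SE 0.37, to 0.425 of the SPF control level, adjusted p = 0.0370). The call was lost with Tukey HSD (0.209), in the fit of the SPF mice alone (0.102), with median centring (-0.88, 0.0540) and without SPF PAT mouse 27 (0.136), SPF PAT mouse 26 (0.122), SPF control mouse 7 (0.116), SPF control mouse 2 (0.103), GF PAT mouse 42 (0.0540) or GF PAT mouse 41 (0.0515). Icos had 32.4, 42.5 and 121 normalized counts in SPF PAT mice, with mouse 21 again the highest and within the range of the SPF control mice. Its difference was -1.42 (SE 0.60, unadjusted p = 0.0407, adjusted p = 0.105), and without mouse 21 it was -1.99 (adjusted p = 0.0257).

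Cd96 had 13.2, 16.82 and 17.7 normalized counts in SPF PAT mice, within or just below the range of the SPF control mice. Its difference was 0.06, with a 95% interval from -0.34 to 0.45. Cd28 had 14.4, 16.5 and 24.5 normalized counts and a difference of -0.20 (95% interval -1.51 to 1.11). Pdcd1, at 4.804, 10.6 and 34.8, and Btla, at 72.0, 72.1 and 821, differed from SPF control mice by -1.03 (adjusted p = 0.348) and -1.51 (adjusted p = 0.344). For Pdcd1, Btla, Icos, Ctla4 and Cd28 the highest SPF PAT value came from the same mouse, mouse 21. The median difference of the 7 receptors was -1.03, against -0.02 over all genes.

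**Figure D2:**
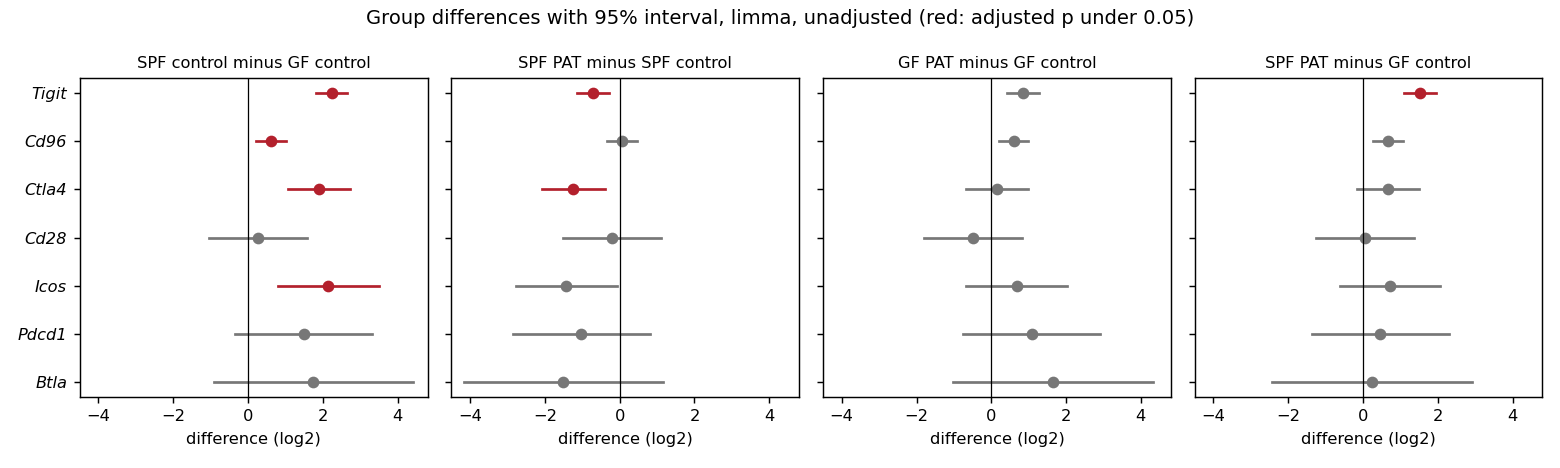
Differences between groups on the log2 scale for the 7 receptors in 4 comparisons, with 95% intervals from limma, in red where the adjusted p was under 0.05. Tigit is called in 3 of the 4 panels with narrow intervals, whereas the intervals of Btla and Pdcd1 cross 0 in each panel.

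In germ-free mice, which carry no microbiota, no gene of the 556 was called between GF PAT and GF control mice (0%), and 28 had an unadjusted p under 0.05 in limma. These 28 are about as many as that threshold passes if no gene differs. Tigit and Cd96 were among those 28. Tigit was higher in all 3 GF PAT mice than in any GF control mouse, with a difference of 0.85 (SE 0.19, 1.80-fold, unadjusted p = 0.00117, adjusted p = 0.326). Cd96 had 14.0, 15.01 and 15.9 normalized counts in GF PAT mice, again above every GF control mouse, with a difference of 0.60 (SE 0.18, unadjusted p = 0.00741, adjusted p = 0.441). The other receptors overlapped between these groups. Normalized counts in GF PAT mice were 18.2, 26.1 and 26.9 for Ctla4, with a difference of 0.14 (SE 0.37). For Cd28 they were 5.36, 16.78 and 20.9, with a difference of -0.48 (SE 0.59). Those of Icos were 31.1, 56.7 and 85.7, with a difference of 0.67 (SE 0.60). Mouse 43 was the lowest GF PAT mouse for Ctla4, Cd28, Icos, Pdcd1 and Btla. Pdcd1 had 9.65, 24.2 and 26.9 normalized counts, with a difference of 1.08 (SE 0.82). Btla had 237, 453 and 736, with a difference of 1.65 (SE 1.19).

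Tigit had a negative tylosin difference in SPF mice and a positive one in GF mice. The difference between the 2 effects was tested directly, as an interaction, and was -1.56 for Tigit (SE 0.26, 95% interval -2.16 to -0.97, adjusted p = 0.00972). Tigit was the 1 receptor called, where 17.1% of all genes were called. With median centring the interaction of Tigit was -1.02 (adjusted p = 0.0602), and with quantile normalization -0.80 (0.0998). Icos (-2.10, adjusted p = 0.105), Ctla4 (-1.38, 0.0877), Pdcd1 (-2.10, 0.189) and Btla (-3.15, 0.177) had negative values with wide intervals. Without SPF PAT mouse 21, 4 receptors were called, namely Tigit, Ctla4 (-1.81), Icos (-2.67) and Btla (-4.32), and the share of all genes called rose to 39%.

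SPF PAT mice were also set against the germ-free groups. Against GF control mice 1 of the 7 receptors was called, where 2.16% of all genes were called. It was Tigit, which was 1.52 higher in SPF PAT mice (SE 0.19, 2.87-fold, adjusted p = 0.00691) and stayed past the threshold without each of the 12 mice in turn. In a fit of those groups alone its adjusted p was 0.144, and with median centring 0.0562. Cd96 was 0.67 higher (SE 0.18, unadjusted p = 0.00364, adjusted p = 0.126), and the differences of the other receptors lay between 0.06 for Cd28 and 0.72 for Icos. Against GF PAT mice 0 of the 7 receptors were called, where 1.44% of all genes were called, and Tigit had the 1 unadjusted p under 0.05 in limma among the receptors (0.67 higher, unadjusted p = 0.00512, adjusted p = 0.15). Along the order of Tigit levels, therefore, SPF control and SPF PAT mice differed past the threshold, whereas SPF PAT and GF PAT mice, and GF PAT and GF control mice, did not. For Ctla4 the order of group means was SPF control, SPF PAT, GF PAT and GF control, and only the step from SPF control to SPF PAT passed. The F-test over the 4 groups called Tigit (adjusted p = 0.000206), Ctla4 (0.0120) and Cd96 (0.0377), 3 of the 7 receptors, where 33.1% of all genes were called. Without SPF control mouse 7 the F-test called Tigit alone (adjusted p = 0.00188), with 0.0627 for Ctla4 and 0.0706 for Cd96, where 15.1% of all genes were called, and without SPF control mouse 2 Ctla4 was at 0.0560. The Cd96 call was lost with an intensity trend (0.114), median centring (0.302), quantile normalization (0.107) and voom (0.183), and without any of 8 of the 12 mice (up to 0.149, without GF control mouse 39).

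The receptors differed most in how much mice of the same group varied. The pooled SD within groups was 0.21 for Cd96 and 0.23 for Tigit on the log2 scale, under the 0.30 of the median gene. It was 0.49 for Ctla4, 0.78 for Cd28, 0.80 for Icos, 1.10 for Pdcd1 and 1.60 for Btla. The mice that stood out were the same for several receptors. B cell genes varied in the same mice, among them Ms4a1 and Cd79a, which encode surface molecules of B cells. All 7 measured genes of the B cell list of 8 were above 0 in every mouse, and their summed normalized counts were 5055, 5939 and 415 in SPF control mice 2, 7 and 8. In SPF PAT mice the sums were 5181 for mouse 21, 224 for mouse 26 and 160 for mouse 27. GF control mice had 3007 for mouse 37, 406 for mouse 38 and 131 for mouse 39, and GF PAT mice 5104, 2912 and 1334. SPF control mouse 8 thus stood several times below its group, and SPF PAT mouse 21 and GF control mouse 37 several times above theirs. GF control mice 38 and 39 also differed from each other.

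Over the 12 mice, deviations from the group mean correlated with those of the B cell list at Pearson's r = 0.979 for Btla (Spearman's rho 0.937), 0.956 for Icos (0.888) and 0.863 for Pdcd1 (0.797). The values were lower for Ctla4 (r = 0.734, rho 0.510), Cd28 (0.522, 0.490) and Tigit (0.273, 0.392), and near 0 for Cd96 (-0.008, 0.056). Without the 2 mice farthest from the median of the B cell deviations, r was 0.958 for Btla, 0.911 for Icos, 0.888 for Pdcd1, 0.721 for Cd28, 0.506 for Ctla4, 0.428 for Tigit and 0.22 for Cd96, so that Cd28 then stood above Ctla4. These are descriptions over mice whose values share an RNA sample and a size factor. The T cell complex list followed the B cell list too, with r = 0.937.

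**Figure D3:**
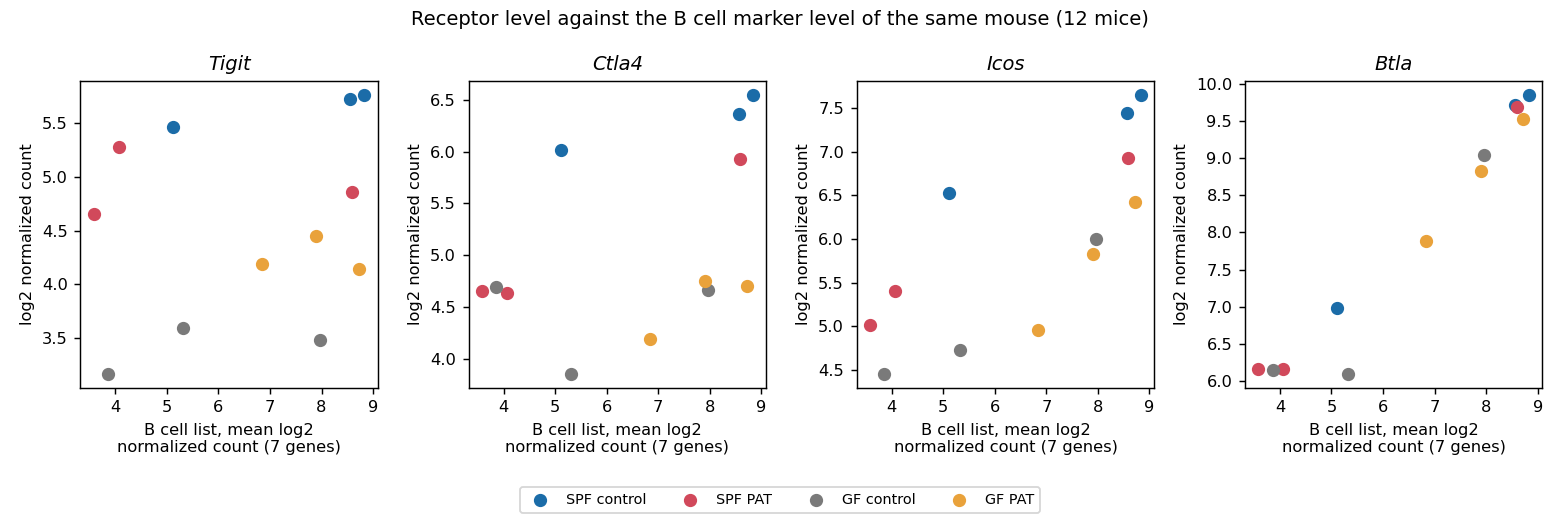
Log2 normalized counts of Tigit, Ctla4, Icos and Btla in each of the 12 mice against the mean log2 normalized count of 7 B cell genes in the same mouse, coloured by group. Btla is higher in mice with a higher B cell level, and Tigit separates by group with little relation to it (within-group r of 0.979 and 0.273).

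With the mouse's B cell list mean as a covariate in limma, a setting chosen after seeing this spread, the calls of Tigit held. Tigit was 2.18 higher in SPF control than in GF control mice (adjusted p = 0.000105, where 48.2% of all genes were called), and its difference between SPF PAT and SPF control mice was -0.65 (0.0402, where 26.1% were called). The interaction was -1.44 (0.0294, where 8.81% were called), and the difference of SPF PAT from GF control mice 1.53 (0.00450, where 3.06% were called). The SE of Icos shrank from 0.60 to 0.21, and its difference between SPF control and GF control mice was 1.48 (adjusted p = 0.000664). The differences of Btla shrank in this fit, from 1.75 to 0.40 between SPF control and GF control mice and from -1.51 to 0.07 between SPF PAT and SPF control mice (adjusted p = 0.273 and 0.867). The difference of Ctla4 between SPF PAT and SPF control mice was -0.87, with an adjusted p of 0.0538.

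Genes of the T cell receptor complex moved in the same comparisons as the receptors. Cd3d, Cd3e and Cd247 encode signalling chains of the complex, and Lck and Zap70 the kinases that act on them. All 5 of the measured genes were higher in SPF control than in GF control mice, from 1.54 for Zap70 to 2.03 for Cd247, with a median of 1.86, where 42.1% of all genes were called. In SPF PAT mice 4 of the 5 were lower than in SPF control mice, where 26.3% of all genes were called, with differences from -1.28 for Zap70 to -1.40 for Cd3e, and Lck had a difference of -1.41 with an adjusted p of 0.0820. The summed normalized counts of the 5 genes were 837 to 1327 in SPF control, 274 to 812 in SPF PAT, 240 to 524 in GF control and 338 to 645 in GF PAT mice. Without SPF PAT mouse 27, SPF control mouse 7 or SPF control mouse 2 those 4 calls were lost. Of the 12 fits that each left out 1 mouse, 2 kept the call of Cd247, 3 that of Cd3d, 7 that of Cd3e and 9 that of Zap70. Of the 11 other settings run, 7 kept the call of Cd247, 7 that of Cd3d, 8 that of Cd3e and 8 that of Zap70. Between the control groups the Lck call was lost without any of 4 of the 12 mice (adjusted p up to 0.0973). It was also lost in 2 of the 11 other settings (up to 0.208), and Cd3d and Cd3e were each lost in 1. With the T cell list mean as a covariate Tigit was still 2.13 higher in SPF control than in GF control mice (adjusted p = 0.00655, where 19.8% of all genes were called) and it was still called in SPF PAT against GF control mice (adjusted p = 0.00774, where 4.5% were called). Its difference between SPF PAT and SPF control mice was -0.63 in that fit (adjusted p = 0.156, where 10.1% of all genes were called), and its interaction was -1.45 (0.110, where 0.18% were called). Ctla4 lost both its calls in that fit, with a difference of 0.53 between SPF control and GF control mice (adjusted p = 0.346) and of -0.21 between SPF PAT and SPF control mice (0.717), and Cd96 lost its call between the control groups (0.72, 0.125). Icos turned to -0.48 between the control groups (0.216), and Btla turned to -3.36 there (0.0128) and to 2.33 for SPF PAT against SPF control mice (0.0349).

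When each mouse's T cell complex mean was subtracted from all values, the receptors were compared with the T cell genes themselves. Tigit then differed between SPF control and GF control mice by 0.42 (SE 0.46, adjusted p = 0.428), Ctla4 by 0.09 (SE 0.35) and Icos by 0.33 (SE 0.35). Cd96 and Cd28 were lower relative to the T cell genes in SPF control mice, with differences of -1.20 (adjusted p = 0.0437) and -1.55 (0.0248). These were 2 of the 7 receptors, where 71% of all genes were called on this scale, nearly all of them lower, with a median over all genes of -1.73. In SPF PAT against SPF control mice Cd96 was 1.41 higher relative to the T cell genes (adjusted p = 0.0333), the 1 receptor called, where 50.4% of all genes were called and the median over all genes was 1.34. On its own log2 values Cd96 differed by 0.06 there, so that this call is about the size of the shift in the subtracted T cell mean. Cd28 was called in the interaction on this scale (2.26, adjusted p = 0.0318), where 56.1% of all genes were called, all of them higher, and the median over all genes was 1.98. The Cd28 interaction on log2 values was 0.28 (adjusted p = 0.809). In SPF PAT against GF control mice Tigit was 1.07 higher relative to the T cell genes (SE 0.46, unadjusted p = 0.0390, adjusted p = 0.747), and no gene was called (0%), with 18 at an unadjusted p under 0.05 in limma. Its difference of SPF PAT from SPF control mice and its interaction turned sign on this scale, to 0.64 and 0.41, and neither was called (adjusted p = 0.249 and 0.596). The Cd96 and Cd28 calls between the control groups were both lost when Cd2, Cd5 and Cd6 stood in for the T cell complex genes (adjusted p = 0.112 and 0.0552). They were also both lost without SPF control mouse 8 (0.0608 and 0.101), GF control mouse 39 (0.111 and 0.0925) or GF control mouse 38 (0.133 and 0.104). The Cd96 call was further lost without SPF PAT mouse 26 (0.0503), SPF control mouse 7 (0.146), SPF control mouse 2 (0.0649), GF PAT mouse 43 (0.0506) or GF PAT mouse 42 (0.0581). The Cd96 call for SPF PAT against SPF control mice was lost without SPF PAT mouse 27 (0.146), SPF PAT mouse 26 (0.122), SPF control mouse 7 (0.121) or SPF control mouse 2 (0.0754). The Cd28 interaction was lost without any of 9 of the 12 mice (adjusted p from 0.0542 to 0.0840), and kept its call without SPF PAT mouse 21, GF PAT mouse 42 or GF control mouse 37.

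Of 18 listed ligands, competing receptors and related receptors, 10 were measured, and Pvr was not analysed here. Between SPF control and GF control mice 4 of the 10 rose and none fell, with a median difference of 0.60, a share close to the 42.1% of all genes called there. Cd274, the main ligand of Pdcd1, had 152 to 204 normalized counts in SPF control mice, 51.9 to 81.8 in SPF PAT, 60.2 to 65.0 in GF control and 75.6 to 84.8 in GF PAT mice. SPF control mice stood above all other mice. Cd274 was 1.49 higher in SPF control than in GF control mice (SE 0.18, adjusted p = 0.000313), fell by 1.52 in SPF PAT against SPF control mice (SE 0.18, adjusted p = 0.000820) and had an interaction of -1.88 (SE 0.25, adjusted p = 0.00467).

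Cd226, the activating receptor that competes with Tigit, had 112 to 119 normalized counts in SPF control mice and 27.7 to 68.1 in GF control mice, without overlap. It was 1.38 higher in SPF control mice (SE 0.35, adjusted p = 0.0107) and fell by 1.09 in SPF PAT mice (SE 0.35, adjusted p = 0.0443), whose values were 37.2 to 81.8. Tigit and Cd226 therefore moved in the same direction in both comparisons. The second Cd226 call was lost without any of 9 of the 12 mice, with the highest adjusted p without SPF PAT mouse 27 (0.16), and with median centring (0.0710). Cd80, a ligand of Ctla4 and Cd28, was 0.78 higher in SPF control than in GF control mice (SE 0.26, adjusted p = 0.0338), and Cd160, a receptor that shares the ligand of Btla, 0.75 higher (SE 0.21, adjusted p = 0.0162). With median centring neither of these passed (adjusted p = 0.274 and 0.302), and Cd80 was also lost without SPF control mouse 8, 7 or 2 or GF control mouse 38 (adjusted p up to 0.104). Cd274 and Cd226 were the 2 of the 10 called between SPF PAT and SPF control mice, where the median was -0.46 and 26.3% of all genes were called.

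Cd86, Icosl, Pdcd1lg2 and Tnfrsf14, the ligands of Ctla4 and Cd28, of Icos, of Pdcd1 and of Btla, passed in no comparison of log2 values. Icosl had differences of -0.05 and 0.08 (SE 0.25 for each) between SPF control and GF control and between SPF PAT and SPF control mice, while Icos differed by 2.15 and -1.42. Tnfrsf14, at 862 to 1291 normalized counts over all mice, had differences of 0.06 and -0.11 (SE 0.15). Pdcd1lg2 differed by 0.74 and -0.57 (SE 0.51), and Cd86 by 0.47 and -0.41 (SE 0.28).

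**Figure D4:**
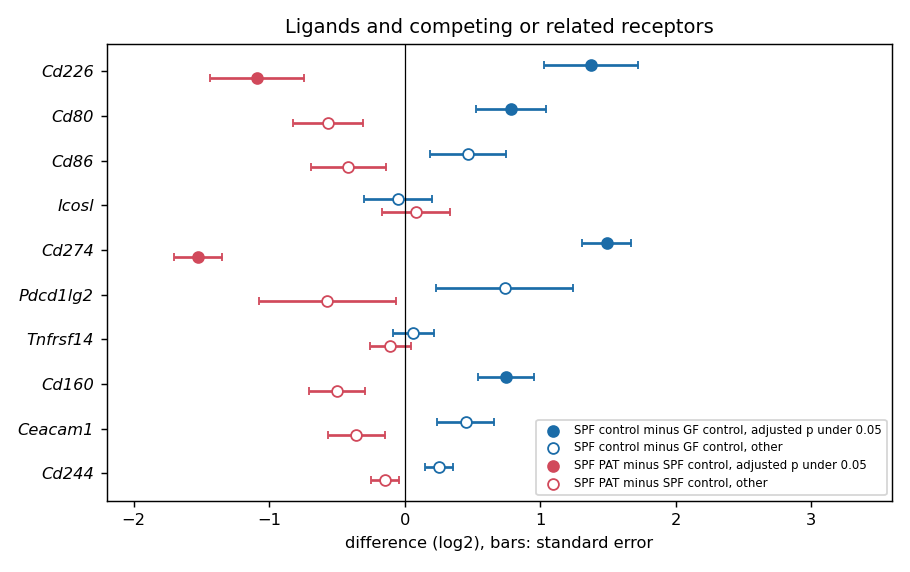
Differences on the log2 scale of the 10 measured ligands and competing or related receptors between SPF control and GF control mice and between SPF PAT and SPF control mice, with bars for the SE and filled points for an adjusted p under 0.05. Cd274 and Cd226 are called to the right of 0 between SPF control and GF control mice (1.49 and 1.38) and to the left between SPF PAT and SPF control mice (-1.52 and -1.09), and Icosl and Tnfrsf14 lie near 0 in both.

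Cells that carry the receptors were followed through further marker lists. Of 10 measured genes of cytotoxic and natural killer cells, 7 were higher in SPF control than in GF control mice and 7 were lower in SPF PAT than in SPF control mice, with medians of 1.31 and -1.35, where 42.1% and 26.3% of all genes were called in either direction. Gzmb, Ccl5 and Gzma had the largest differences between the control groups, at 3.48, 2.87 and 2.84 (adjusted p = 1.64e-05, 0.000156 and 0.000336). Of 5 genes of regulatory T cells, which carry much Ctla4 and Tigit, only Ikzf2 passed, at 0.71 between the control groups and -0.55 in SPF PAT against SPF control mice (adjusted p = 0.00910 and 0.0440). Of 4 genes of follicular helper T cells, which carry Icos and Pdcd1, only Bcl6 was called between the control groups. Bcl6 was lower in SPF control than in GF control mice, with a difference of -0.65 (adjusted p = 0.0358). The other 3 genes, Cxcr5, Il21 and Sh2d1a, had positive differences there without a call, and the median of the list was 1.46. Il21 fell by 1.95 in SPF PAT against SPF control mice (adjusted p = 0.0402). The Ikzf2 calls were lost with median centring (adjusted p = 0.264 and 0.446), and the second of them, like the Il21 call, was lost without any of 9 of the 12 mice (adjusted p up to 0.16 and 0.14). The Bcl6 call was lost without SPF control mouse 8 or 2 or any GF control mouse (adjusted p up to 0.102). Markers of other cells also differed between the control groups. Pigr was 0.77 and the myeloid gene Itgam 1.26 higher in SPF control mice (adjusted p = 0.0257 and 0.00629). The endothelial gene Cdh5 differed by -0.77 and the myeloid gene Cd163 by -1.02 (0.00589 and 0.0229). The other 5 myeloid genes and Pecam1 were not called. Among these markers, only Itgam was called in SPF PAT against SPF control mice (-0.90, 0.0440).

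Of the helper T cell cytokines and factors measured, Il17a, the cytokine of T helper 17 cells, was 1.68 higher in SPF control than in GF control mice (adjusted p = 0.00531) and fell by 1.38 in SPF PAT against SPF control mice (0.0217). The latter call was lost with median centring (0.0570) and without SPF PAT mouse 27 or 26 or SPF control mouse 7 or 2 (adjusted p up to 0.0649). None of the 7 B cell genes passed in any comparison. Their median difference was 1.84 between SPF control and GF control mice, with all 7 positive. In SPF PAT against SPF control mice it was -2.05, with all 7 negative.

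Among 6 co-stimulators of the TNF receptor family, 1 was called between SPF control and GF control mice, where 42.1% of all genes were called. It was Cd40lg, the ligand by which T cells help B cells (1.71, adjusted p = 0.0172). None of the 6 was called in the other comparisons of log2 values. Of 7 genes that transmit receptor signals, 1 was higher and 1 lower in the same comparison, beside the same 42.1% of all genes. Fyn was higher (0.68, adjusted p = 0.0187) and Ptpn2, a phosphatase, lower (-0.58, 0.00815) in SPF control than in GF control mice. Lcp2, an adaptor of antigen receptor signalling, was higher in SPF PAT than in SPF control mice (0.48, adjusted p = 0.0169) and than in GF control mice (0.77, 0.0196). The first Lcp2 call was lost without SPF PAT mouse 27 (0.0632), SPF control mouse 7 (0.0639) or SPF control mouse 2 (0.0512), and in 3 of the 12 other settings (up to 0.148). Fyn was lost without SPF control mouse 7 (0.0758) or 2 (0.0533) or GF control mouse 39 (0.0512) as well as in the fits named next. With median centring Fyn (adjusted p = 0.293) and the second Lcp2 difference (0.538) did not pass, and without GF control mouse 38 Cd40lg (0.0676), Fyn (0.0624) and the second Lcp2 difference (0.0982) did not. Cd40lg was also lost without SPF control mouse 7 (0.0564), with Tukey HSD (0.121), with Benjamini-Yekutieli adjustment (0.119) and with the T cell covariate. The second Lcp2 difference was also lost without SPF PAT mouse 27 (0.0517) or 26 (0.0690) and, median centring included, in 6 of the 12 other settings run (up to 0.6).

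The genes whose pattern was most like that of Tigit were found by the root mean square difference of log2 values over the 12 mice, each gene centred on its own mean. They were Irf4 (0.38), Ccl4 (0.44), Saa3 (0.45), Ccr9 (0.48) and Klrd1 (0.48). Irf4, a transcription factor of activated lymphocytes, had 338 to 349 normalized counts in SPF control mice, 144 to 154 in SPF PAT, 107 to 150 in GF PAT and 47.0 to 101 in GF control mice. It was chosen for its likeness to Tigit, so these levels are a description. Ccr9 directs lymphocytes to the small intestine, and Klrd1 is a receptor subunit of natural killer and CD8 T cells. Ctla4 ranked 23rd in likeness to Tigit, Cd96 66th, Icos 93rd, Cd28 270th, Pdcd1 292nd and Btla 526th. Among the receptors themselves Ctla4 and Icos, neighbours on chromosome 1, were the most alike pair (0.48), and Tigit and Btla the least alike (1.49).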

How the data were processed

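Ileal RNA of 12 mice, 3 in each of 4 groups given by the labels, was hybridized to the probes of NanoString's nCounter mouse immunology panel. The authors normalized the counts with DESeq2 and deposited log2 values for 556 genes, and 28 entries for reference genes and control probes hold no value. With 1 size factor per mouse, values gave whole counts within 0.01, with totals of 600308 to 923395. No reads were aligned.

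Groups were compared in limma 3.58.1 (lmFit and eBayes, statmod 1.5.0, R 4.3.3) with 1 mean per group, Benjamini-Hochberg adjustment over 556 genes and a threshold of 0.05. The fit was tested on simulated data. A second fit subtracted each mouse's mean of 5 T cell complex genes. All receptors with values were named, with their ligands, the T cell complex genes, up to 3 called genes of other lists and the 5 genes most like Tigit. The members and lists were chosen with earlier results of these data known. Alternatives were other tests, adjustments, variance models, filters, scalings, voom, covariates and leaving out each mouse. Nfil3, Saa1_2 and Tnfsf15 were named after their values were seen. Promoters came from RefSeq (GRCm38.p6).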

Additional observations from a re-analysis of the deposited data

Results flagged for a closer look

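For Tigit the tylosin effect was called as different between SPF and GF mice on the log2 values, where 17.1% of all genes were called. Within GF mice alone the difference of Tigit was 0.85 and was not called (adjusted p = 0.326 in limma). The difference between the effects was -1.56 on the log2 scale in limma (adjusted p = 0.00972), with the 3 SPF PAT mice below the 3 SPF control mice and the 3 GF PAT mice above the 3 GF control mice. The call was lost with median centring (-1.02, adjusted p = 0.0602), quantile normalization (-0.80, 0.0998), the T cell covariate (-1.45, 0.110) and Benjamini-Yekutieli adjustment, and relative to the T cell genes the sign turned (0.41, adjusted p = 0.596).

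For Cd28 the tylosin effect relative to the T cell complex genes differed between SPF and GF mice, by 2.26 on the log2 scale in limma (adjusted p = 0.0318). It was 1.16 in SPF mice (adjusted p = 0.0920) and -1.10 in GF mice (adjusted p = 0.468). The call was lost without any of 9 of the 12 mice (adjusted p from 0.0542 to 0.0840). On this scale 56.1% of all genes were called in the same comparison, all higher, with a median of 1.98, and on log2 values the difference of Cd28 was 0.28 (adjusted p = 0.809).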

How the results depend on the processing

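Counts of called receptors were recomputed under other settings. SPF control against GF control mice (4 called) gave 2 with Tukey HSD, with Benjamini-Yekutieli adjustment and with the T cell covariate, and 2 to 4 without each mouse in turn. SPF PAT against SPF control mice (2 called) gave 0 with Tukey HSD, Benjamini-Yekutieli adjustment, only the groups compared or median centring, 1 with quantile normalization, the B cell covariate or the T cell covariate, and 0 to 3 without each mouse. The interaction (1 called) gave 0 with Benjamini-Yekutieli adjustment, median centring, quantile normalization or the T cell covariate, and 1 to 4 without each mouse. SPF PAT against GF control mice (1 called) gave 0 with only the groups compared or median centring, and 1 without each mouse. The F-test (3 called) gave 1 with Benjamini-Yekutieli adjustment and 1 to 4 without each mouse. Relative to the T cell genes, the control groups (2 called) gave 0 with Cd2, Cd5 and Cd6, a minimum mean normalized count of 20 or Benjamini-Yekutieli adjustment, and 0 to 2 without each mouse. The same minimum, which removes Cd96 and Cd28, and the same adjustment gave 0 for SPF PAT against SPF control mice (1 called) and for the interaction (1 called) on that scale, with 0 to 2 without each mouse for each. GF PAT against GF control and SPF PAT against GF PAT mice gave 0 in every setting run, on both scales.

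With the T cell covariate, Icos turned to -0.48 (adjusted p = 0.216) and Btla to -3.36 (0.0128) between the control groups, and Btla turned to 2.33 (0.0349) for SPF PAT against SPF control mice. The counts given for that covariate include these Btla differences: the 2 between the control groups are Tigit and Btla, and the 1 for SPF PAT against SPF control mice is Btla, with neither Tigit nor Ctla4 called. Cd40lg turned to -0.17 (0.810) between the control groups. The cause was not tested. Tigit between SPF control and GF control mice kept its call in every setting run on the log2 values, with differences from 1.71 to 2.33; relative to the T cell genes it was not called (0.42, adjusted p = 0.428). The 3 receptors with a mean normalized count under 20 carry the largest counting error on average over the mice. Tigit, at recovered counts of 9 to 11 in GF control mice, carries as much there as Cd96. For 20 other genes named, not counting Pigr, Itgam, Cdh5 and Cd163, 41 differences were called. Of these, 20 kept their call without each mouse in turn, and 9 in every setting run. The covariates were chosen after seeing the data. No paired analysis was possible because the replicate numbers of the groups do not come from the labels and pair no mice.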
